A study of Mus musculus with 94 samples.

Results

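The genes described here are 38 mouse genes whose products carry cells through mitosis, chosen by symbol as a gene module, of 24767 genes present in any of 4 deposited count tables. All 38 were in the 3 RNA tables and 36 were in the PRO-seq table, where Kif20b and Tpx2 were not analysed. They were read by role: 4 are cyclins and CDK1, 5 mitotic kinases and a partner, 3 spindle checkpoint genes, 4 genes of anaphase promotion and sister separation, 3 centromere and kinetochore genes, 4 kinesins, 5 spindle assembly genes, 4 genes of chromosome structure and 6 genes of the central spindle and cytokinesis. Every member passed the filter on low counts in every table that held it, and the lowest member count in any library was 354.

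The study degraded cohesin or its release factor in differentiating mouse embryonic stem cells of a CAST/Ei x 129/Sv/Jae cross, labelled Tsix-stop, and 18 of its 94 samples were used. The cells carried an FKBP degron, a tag through which the small molecule dTAG-13 marks the fused protein for destruction, on either RAD21 or WAPL. They had been kept on gamma-irradiated fibroblast feeders with LIF, were differentiated as embryoid bodies without LIF, and were treated with 500 nM dTAG-13 or the same volume of DMSO. WAPL-degron cells were treated for 3 days, from day 4 to 7 (3 dTAG-13 and 3 DMSO libraries: clone H7 replicates 1 and 2 and a pair of clone H2) or from day 7 to 10 (2 and 2 libraries, clone H7 replicates 1 and 2), and poly(A) RNA was sequenced. RAD21-degron cells were treated for 8 h, with poly(A) RNA taken at day 10 and nascent RNA (PRO-seq, precision run-on sequencing of RNA held by engaged polymerases) at day 7, each in 1 dTAG-13 and 1 DMSO library of clones C4 and G9. Each line is a clone, the DMSO cells carry the same degron as the dTAG-13 cells, and nothing in the labels says that replicates came from separate cultures, so p-values measure the spread between these libraries only. In the RAD21 sets the test takes that spread mostly from all genes together. A gene's own libraries add next to nothing to it in RNA and little in PRO-seq. A small p-value in either RAD21 set is no measure of how well a single gene repeats.

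The mitotic programme is transcribed in waves: most of these genes are held down in G1 by the DREAM complex at CHR and CDE elements and are switched on in G2 by B-MYB with MuvB and by FOXM1, often beside CCAAT boxes bound by NF-Y. Several of the products act on cohesin itself. PLK1 and Aurora B phosphorylation lets WAPL open cohesin rings on chromosome arms in prophase, and separase (Espl1), held in check by securin (Pttg1) until the anaphase-promoting complex destroys securin, cleaves RAD21 at anaphase.

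The start regions of 6 members are shown because the CHR and CCAAT letters just described can be read in them. RefSeq (GRCm38.p6) gave start regions of 33 of the 38 genes, each of 300 bases, 250 before the start and 50 from it; Aurkb, Ccna2, Dlgap5, Kif20a and Tpx2 had no entry. The letters TTTGAA or its reverse complement TTCAAA, the core of a CHR element, stood in 25 of 33 members (75.8%) and in 20.2% of all genes with an entry. CCAAT or its reverse complement ATTGG stood in 26 members (78.8%) and 41.1% of all genes, and both kinds in 22 members (66.7%) and 8.97% of all genes. The variant TTTAAA, a palindrome counted apart from the others, stood in 9 members (27.3%) and 14.9% of all genes. Within 50 bases of the start on either side, TTTGAA or TTCAAA stood in 23 members (69.7%) and 5.72% of all genes. Below, 170 bases (120 before the start and 50 from it) of the 4 genes that rose in PRO-seq, of Bub1b and of Espl1 run 5′ to 3′ on the gene's own strand, with TTTGAA or TTCAAA and CCAAT or ATTGG in capitals. Kif23 lies at chr9:61946750-61946919 (minus strand), Hmmr at chr11:40733388-40733557 (minus), Ect2 at chr3:27153829-27153998 (minus), Kif4 at chrX:100625945-100626114 (plus), Bub1b at chr2:118598091-118598260 (plus) and Espl1 at chr15:102296173-102296342 (plus).
Kif23: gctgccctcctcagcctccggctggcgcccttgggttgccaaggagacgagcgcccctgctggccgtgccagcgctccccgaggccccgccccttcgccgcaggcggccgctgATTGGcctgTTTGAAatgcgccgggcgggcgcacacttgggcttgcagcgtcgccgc
Hmmr: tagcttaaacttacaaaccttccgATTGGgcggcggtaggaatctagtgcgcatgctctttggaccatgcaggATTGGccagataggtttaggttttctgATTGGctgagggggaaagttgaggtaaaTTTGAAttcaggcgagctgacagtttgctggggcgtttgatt
Ect2: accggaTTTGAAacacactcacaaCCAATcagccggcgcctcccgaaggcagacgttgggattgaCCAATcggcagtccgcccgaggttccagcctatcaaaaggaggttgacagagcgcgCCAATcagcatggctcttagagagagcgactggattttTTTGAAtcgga
Kif4: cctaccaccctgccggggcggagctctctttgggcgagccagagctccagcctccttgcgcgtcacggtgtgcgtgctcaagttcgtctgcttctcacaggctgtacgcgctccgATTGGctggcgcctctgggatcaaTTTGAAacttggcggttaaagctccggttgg
Bub1b: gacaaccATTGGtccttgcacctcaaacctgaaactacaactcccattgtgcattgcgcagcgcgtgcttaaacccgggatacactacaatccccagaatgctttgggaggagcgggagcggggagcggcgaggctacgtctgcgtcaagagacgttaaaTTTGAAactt
Espl1: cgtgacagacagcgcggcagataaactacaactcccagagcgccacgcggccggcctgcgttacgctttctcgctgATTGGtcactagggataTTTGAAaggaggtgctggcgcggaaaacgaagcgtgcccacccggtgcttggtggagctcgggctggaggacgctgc
All 6 hold TTTGAA and a CCAAT or ATTGG within the stretch shown. A match describes the letters only.

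Library totals ran from 8413212 to 35388461 counts (WAPL days 4 to 7), 12076585 to 26956675 (WAPL days 7 to 10), 13802076 to 33808921 (RAD21 RNA) and 14269544 to 34335988 (PRO-seq). Levels are CPM, a gene's count relative to the TMM-scaled total of its library, so a gene is compared between libraries and never with another gene. The degron acts on protein, so RNA of the targeted gene is no check of its loss: Rad21 had 284 and 216 CPM in RNA of dTAG-13 clones C4 and G9, against 251 and 201 CPM with DMSO, and did not pass the test. Wapl had 757, 922 and 229 CPM in dTAG-13 libraries of clone H7 replicates 1 and 2 and clone H2 at days 4 to 7, against 759, 842 and 244 CPM with DMSO, so clone H2 stood apart from H7 in both treatments. The 6 pluripotency markers, which define undifferentiated stem cells, still summed to 520 to 1749 CPM in the RNA libraries, and of all cell type markers read only the embryonic globins Hba-x and Hbb-y were at 0 in every library of a set (PRO-seq).

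After 8 h of RAD21 degradation 26 of 38 mitosis genes rose in RNA and 0 fell, by edgeR's quasi-likelihood test with a clone term and Benjamini-Hochberg adjustment over all genes (adjusted p under 0.05), beside 9.83% of all 14470 genes tested that rose and 8.89% that fell. The calls depend on the tool, on the scaling and on treating clones as pairs. In edgeR's test the smallest adjusted p of any member was 5.52e-13 with TMM scaling and 1.58e-06 with RLE scaling, an alternative. RLE scaling called 24, beside 8.09% of all genes that rose. With the clone term kept, DESeq2 called 6 (Kif23, Cenpe, Mki67, Nek2, Tpx2 and Cdc20), beside 1.53% of all genes that rose, and scaling by library totals gave 17, beside 4.91%. Without the clone term 0 passed, beside 0% of all genes that rose and 0.00691% that fell. The members' median log2 fold change (dTAG-13 over DMSO) was 0.21, against 0.01 for all genes, and 35 of 38 were above 0. The members' median stayed between 0.17 and 0.27 in fits without any 1 library, which also lacked the clone term. Their summed level was 8432 and 8196 CPM in dTAG-13 clones C4 and G9, against 7404 and 6956 CPM with DMSO. Both dTAG-13 libraries thus lay above both DMSO libraries, and 33 members were higher in both clone pairs (34.6% of all genes were) and 25 had both dTAG-13 libraries above both DMSO libraries (15.6% of all genes). In bulk RNA, fewer or more cells in mitosis and less or more RNA per cell cannot be told apart.

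**Figure D1:**
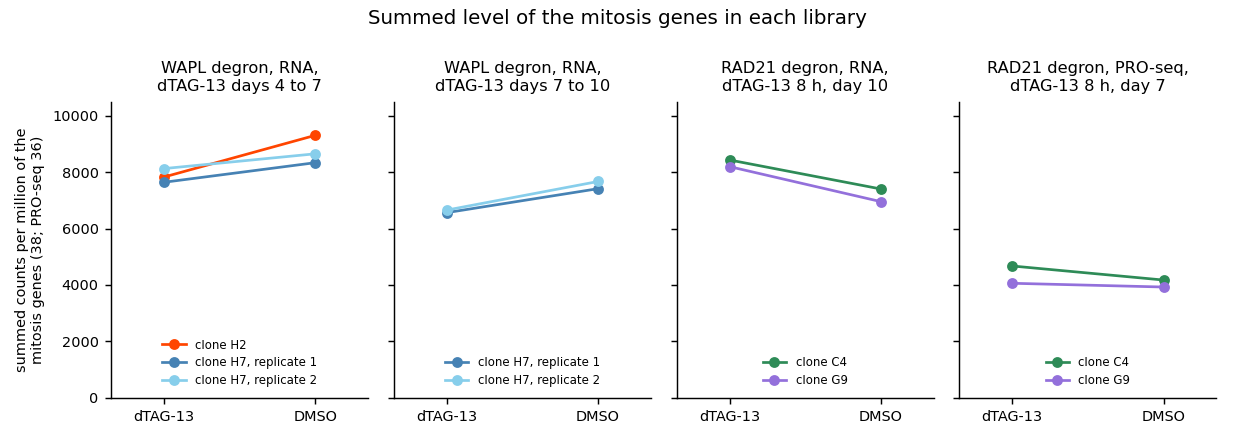
Summed level of the mitosis genes (y axis, CPM; 38 genes in RNA, 36 in PRO-seq) in each library with dTAG-13 (left) and DMSO (right), one panel per set, lines joining libraries of the same clone and replicate. In RAD21 RNA both dTAG-13 libraries (8432 and 8196 CPM) lie above both DMSO libraries, and in both WAPL sets every dTAG-13 library lies below every DMSO library.

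All 6 genes of the last steps of division, those of the central spindle and cytokinesis, rose. Kif23, the kinesin of centralspindlin that bundles midzone microtubules, had 261 and 266 CPM in dTAG-13 clones C4 and G9, against 187 and 186 CPM with DMSO. Both dTAG-13 values were well above both DMSO values, a log2 fold change of 0.50 (SE 0.064, adjusted p = 5.52e-13), which is 1.41-fold. Its partner Racgap1, the GTPase-activating subunit of the complex, rose by 0.28, and Anln (anillin, which organises the contractile ring), Kif20a, Ect2 (an exchange factor that acts at the cell equator) and Prc1 (a midzone bundling protein) rose by 0.27, 0.26, 0.22 and 0.15 on the log2 scale.

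All 3 centromere and kinetochore genes and all 5 spindle assembly genes rose as well. Cenpe, the kinetochore motor that brings chromosomes to the metaphase plate, had 261 and 272 CPM in dTAG-13 clones C4 and G9, against 189.9 and 203 CPM with DMSO, a log2 fold change of 0.44 (SE 0.064, adjusted p = 3.69e-10). Cenpa, the histone H3 variant of centromeric nucleosomes, had 136 and 157 CPM with dTAG-13 and 117 and 116 CPM with DMSO (0.33, adjusted p = 3.02e-07). In both genes the treatments did not overlap. Among spindle genes, Nusap1, which stabilises microtubules near chromatin, had 147 and 159 CPM with dTAG-13 and 124 and 126 CPM with DMSO (0.29, adjusted p = 1.26e-05). Dlgap5, a kinetochore-fibre stabiliser, had 179 and 177 CPM with dTAG-13 and 147 and 144 CPM with DMSO (0.29, adjusted p = 1.64e-05). Again neither gene's treatments overlapped, and the other spindle genes, Tpx2 (the activator of Aurora A), Hmmr and Aspm, rose by 0.32, 0.21 and 0.19, while Cenpf rose by 0.25.

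Of the kinases and their partner, 4 of 5 rose. Nek2, a kinase that separates centrosomes, had 118 and 90.8 CPM in dTAG-13 clones C4 and G9, against 83.8 and 69.9 CPM with DMSO (0.44, SE 0.057, adjusted p = 1.88e-12). Plk1 had 327 and 328 CPM with dTAG-13 and 274 and 280.1 CPM with DMSO (0.24, adjusted p = 0.00479). Both genes were higher in both dTAG-13 libraries than in either DMSO library, and Aurka and the chromosomal passenger subunit Birc5 (survivin) rose by 0.22 and 0.21. Aurkb, the kinase of that same passenger complex, did not pass: it had 107.9 and 104 CPM with dTAG-13 and 107 and 105 CPM with DMSO, a log2 difference of 0.00 that was -0.04 when libraries were scaled by their totals.

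Of the kinesins, Kif4 (a chromokinesin), Kif2c (which depolymerises microtubules at centromeres) and Kif20b rose and Kif11, the motor that pushes spindle poles apart, did not pass. Kif4 had 164 and 149 CPM in dTAG-13 clones C4 and G9, against 131 and 125 CPM with DMSO (0.29, adjusted p = 1.38e-05). Kif2c had 181 and 181 CPM with dTAG-13 and 147 and 148 CPM with DMSO (0.29, adjusted p = 1.73e-05). The dTAG-13 libraries were the higher ones without overlap in both genes, and the log2 difference was 0.18 for Kif20b and 0.05 for Kif11.

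The genes that separate sisters and the checkpoint that restrains them were split. Cdc20, the activator of the anaphase-promoting complex, rose by 0.31 (adjusted p = 0.000372). Espl1, the RAD21-cleaving separase, had 189.7 and 167 CPM in dTAG-13 clones C4 and G9, against 167 and 144 CPM with DMSO (0.20, adjusted p = 0.00748). It was higher with dTAG-13 within each clone, with the G9 dTAG-13 library only just above the C4 DMSO library. Pttg1, its inhibitor, had 95.7 and 122 CPM with dTAG-13 and 96.2 and 99.2 CPM with DMSO, and did not pass (0.15, adjusted p = 0.052); it was higher with dTAG-13 in G9 and about level in C4. The ubiquitin-conjugating enzyme Ube2c did not pass either (0.07). Of the checkpoint genes, Bub1b (BUBR1) had 276 and 245 CPM with dTAG-13 and 237 and 213 CPM with DMSO and rose by 0.21 (adjusted p = 0.00899), with no overlap, whereas Bub1 (0.02) and the kinase Ttk (0.09) did not pass.

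The cyclins with CDK1 and the genes of chromosome structure mostly did not pass. Of the first, Ccnb2 rose by 0.17 (adjusted p = 0.0301). Cdk1, the kinase that drives mitotic entry, had 170.5 and 184 CPM in dTAG-13 clones C4 and G9, against 174 and 182 CPM with DMSO (-0.01, adjusted p = 0.928). Its cyclin Ccnb1 had 69.2 and 64.9 CPM with dTAG-13 and 68.7 and 57.7 CPM with DMSO (0.09, adjusted p = 0.344). In both genes the values of the treatments overlapped, and Ccna2 did not pass (0.14). Of the second, Mki67, the Ki-67 protein that coats mitotic chromosomes, had 693 and 629 CPM with dTAG-13 and 535 and 479 CPM with DMSO and rose by 0.38 (adjusted p = 9.85e-05). Top2a, the decatenating topoisomerase, had 718 and 665 CPM with dTAG-13 and 747 and 663 CPM with DMSO (-0.03, adjusted p = 0.886). Mki67 separated the treatments and Top2a did not, and the condensin I subunits Ncapg (-0.06) and Ncaph (0.03) did not pass.

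**Figure D2:**
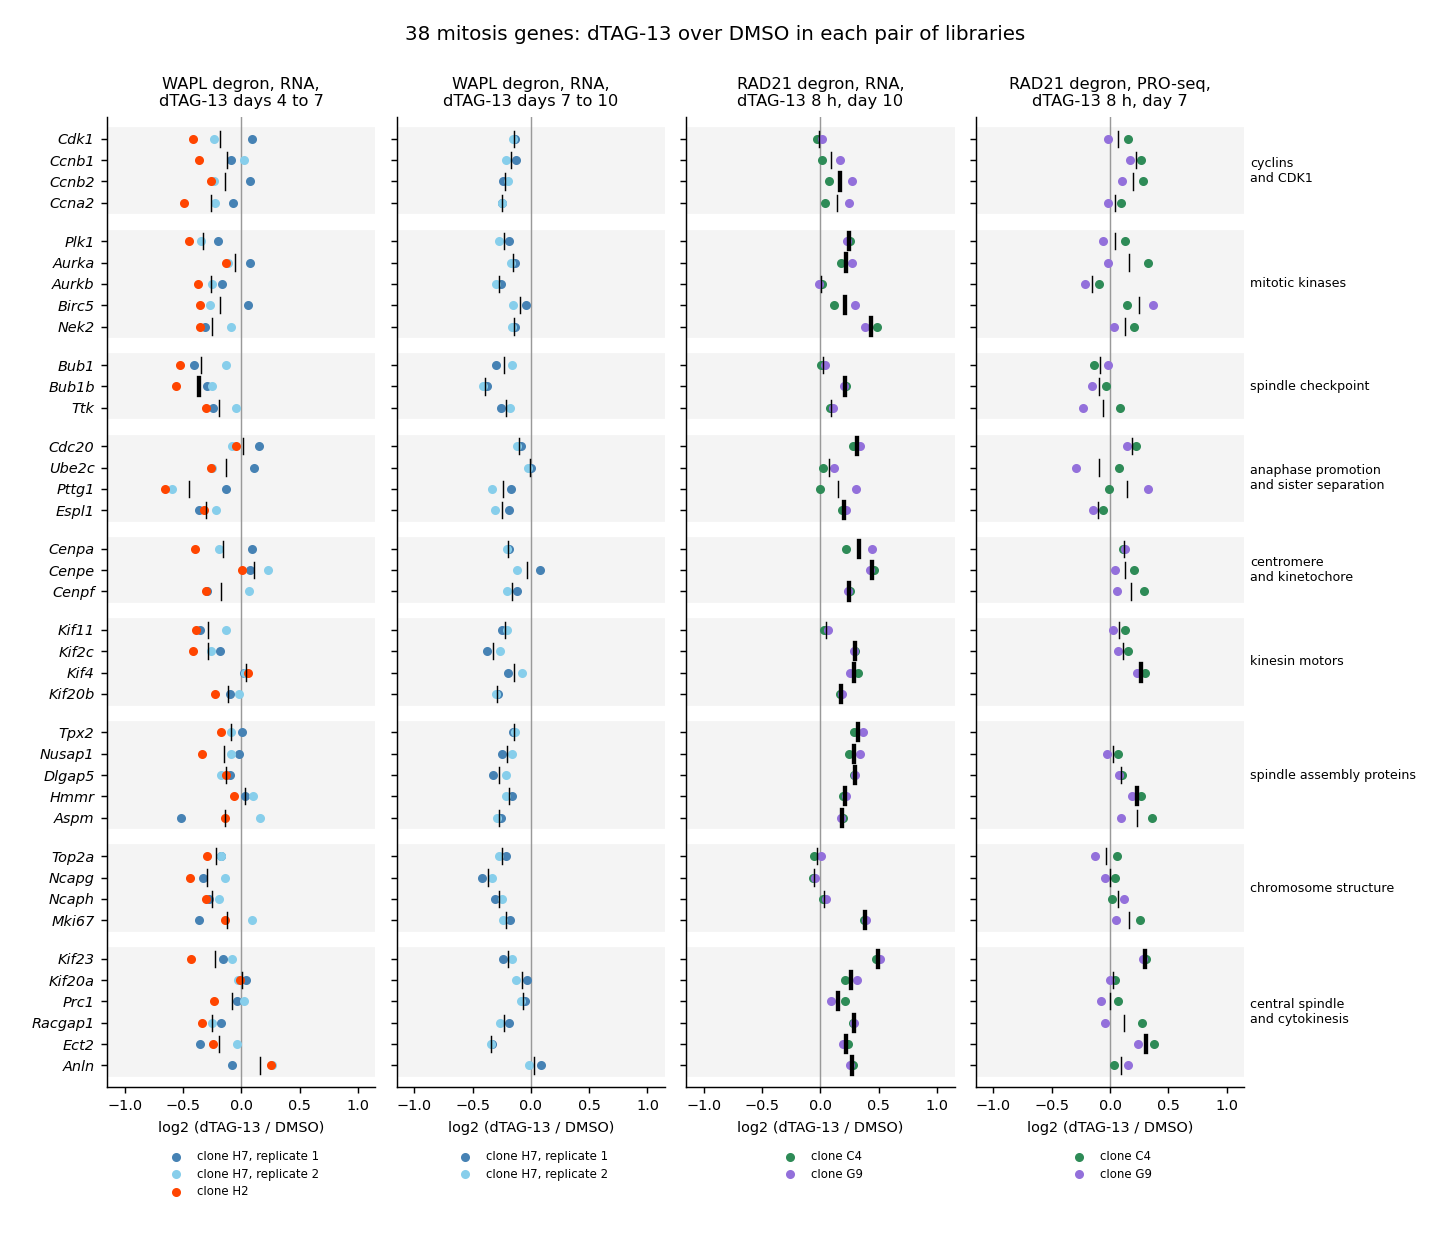
Log2 ratio of dTAG-13 to DMSO (x axis) for each of the 38 mitosis genes (rows, grouped by role) in each pair of libraries (coloured points), with the fitted log2 fold change as a black bar that is thick where the adjusted p was under 0.05. RAD21 RNA shows 26 thick bars, all right of 0, PRO-seq shows 4, also right of 0, and the WAPL sets lie mostly left of 0 with 1 thick bar (Bub1b, days 4 to 7).

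Fewer members passed in nascent RNA of RAD21-depleted cells at day 7. In PRO-seq 4 of 36 rose and 0 fell, beside 5.9% of all 16496 genes tested that rose and 4.66% that fell. The median was 0.10, against 0.00 for all genes, and 28 of 36 were above 0. The summed level was 4673 and 4060 CPM in dTAG-13 clones C4 and G9, against 4175 and 3928 CPM with DMSO, so the treatments overlapped. Of the members 20 were higher in both pairs (33.2% of all genes) and 9 had both dTAG-13 libraries above both DMSO libraries (14.5% of all genes).

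The 4 that rose include Ect2 and Kif23, of the central spindle and cytokinesis group. Ect2 had 299 and 283 CPM in dTAG-13 clones C4 and G9, against 231 and 239.9 CPM with DMSO (0.31, SE 0.065, adjusted p = 0.00152). Kif23 had 135 and 135 CPM with dTAG-13 and 109.5 and 111 CPM with DMSO (0.30, adjusted p = 0.0065). Kif4 had 183 and 168 CPM with dTAG-13 and 148 and 143 CPM with DMSO (0.27, adjusted p = 0.00902). Each of these had both dTAG-13 libraries above both DMSO libraries. Hmmr, a spindle pole protein, had 149 and 128 CPM with dTAG-13 and 124 and 112 CPM with DMSO (0.23, adjusted p = 0.0391), without overlap. All 4 were among the RNA risers: of the members that both tables hold, 24 rose in RNA, so the shared genes are 100% of the PRO-seq list and 16.7% of the RNA list, and over all genes tested in both the shared risers were 38.1% of the PRO-seq list and 23.4% of the RNA list. Both kinds of letters in their start regions, printed earlier, are not particular to these 4: they stand in 22 of the 33 members with an entry, Bub1b and Espl1 included. The RNA and PRO-seq sets are of different days, and the difference between them was not tested.

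Members outside those 4 did not pass in PRO-seq. Plk1 had 67.9 and 52.5 CPM in dTAG-13 clones C4 and G9, against 62.1 and 54.7 CPM with DMSO (0.04). Espl1 had 82.4 and 60.4 CPM with dTAG-13 and 86.0 and 67.1 CPM with DMSO (-0.10), and Pttg1 31.5 and 31.5 CPM with dTAG-13 and 31.7 and 25.1 CPM with DMSO (0.14). The treatments overlapped in all 3. Ccnb1 had 147 and 110.3 CPM with dTAG-13 and 122 and 97.8 CPM with DMSO (0.22, adjusted p = 0.0525), and Cdk1 238 and 177 CPM with dTAG-13 and 214 and 179 CPM with DMSO (0.07). Mki67 had 136 and 119.1 CPM with dTAG-13 and 114 and 115 CPM with DMSO (0.16, adjusted p = 0.198). Ccnb1 was higher with dTAG-13 within each clone and Cdk1 in C4 only, while Mki67 separated the treatments. Top2a had 321 and 285 CPM with dTAG-13 and 309 and 311 CPM with DMSO (-0.03), and Aurkb 42.0 and 32.0 CPM with dTAG-13 and 44.9 and 37.2 CPM with DMSO (-0.15). The 3 checkpoint genes Bub1b (-0.09), Bub1 (-0.08) and Ttk (-0.06) were all below 0 without passing. DESeq2 called 1 member (Ect2), beside 1.77% of all genes that rose, and 0 passed without the clone term, beside 0% of all genes. Fits without 1 library also lacked the clone term, so clone and treatment are mixed in them. The median was -0.01 in the fit without the dTAG-13 library of clone C4. Over pairs the median was 0.13 in C4 and 0.04 in G9.

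Other cell cycle genes moved unevenly in the RAD21 RNA set, where 9.83% of all genes rose and 8.89% fell. Of 56 other mitosis genes 23 rose and 1 fell, with rises in Fam64a (0.52), Cdc25c (0.36), the phosphatase that activates CDK1, and Troap (0.28), and the gene that fell was Wee1 (-0.27), the kinase that inhibits CDK1. Of 30 DNA replication genes 0 rose and 9 fell, among them Ung (uracil removal from DNA; -0.55), Ccne1 (cyclin E1; -0.34) and Cdc6 (origin licensing; -0.30), with a list median of -0.09. Of 22 regulators of mitotic transcription 4 rose, among them E2f7 (0.31) and Foxm1, and 2 fell, Mybl2 (B-MYB) and E2f1. These counts too depend on the tool and the scaling. DESeq2 called 1 of the 56 other mitosis genes higher and 0 lower, and 2 of the 30 replication genes lower. Of the 22 regulators it called 0 higher and 1 lower, beside 1.53% of all genes that rose and 1.76% that fell. With library totals 13 of the 56 rose and 11 of the 30 fell, beside 4.91% and 9% of all genes. Foxm1 had 291 and 227 CPM in dTAG-13 clones C4 and G9, against 240.4 and 191 CPM with DMSO (0.26). Mybl2 had 154 and 85.6 CPM with dTAG-13 and 173 and 129.8 CPM with DMSO (-0.37), and E2f1 37.4 and 31.0 CPM with dTAG-13 and 43.3 and 38.5 CPM with DMSO (-0.26). Within each clone Foxm1 was the higher and Mybl2 and E2f1 the lower with dTAG-13, and E2f1 alone of these separated the treatments.

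The CDK inhibitors were divided too: Cdkn1c rose (0.75), Cdkn1a (p21) rose and Cdkn2b fell (-0.63), of 7 tested. Cdkn1a had 268 and 376 CPM in dTAG-13 clones C4 and G9, against 252 and 284 CPM with DMSO (0.25), higher with dTAG-13 within each clone. Of 15 genes of cohesin and its mitotic regulators Stag1 (0.33) and the loader Nipbl (0.18) rose and 2 fell, among them the acetyltransferase Esco2 (-0.18). DESeq2 called 1 of the 7 inhibitors and 1 of these 15 genes higher and 0 of either list lower, beside 1.53% of all genes that rose. In PRO-seq 3 of 51 other mitosis genes rose, Ckap2 (0.47), Kifc1 (0.27) and Zwint (0.25), about the share of all genes that rose (5.9%). Of 29 DNA replication genes Rrm2 rose (0.23) and Ung (-0.50), Ccne2 (-0.44) and Ccne1 (-0.34) fell, beside 4.66% of all genes that fell. Foxm1 was at 0.00 there and did not pass, with 60.1 and 38.7 CPM in dTAG-13 clones C4 and G9 and 58.6 and 39.7 CPM with DMSO.

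Markers of cell state moved in the same RAD21 libraries. All 6 pluripotency markers fell in RNA, led by Sox2 (-0.75), and 5 of 6 in PRO-seq; in RNA they summed to 520 to 816 CPM with dTAG-13 and 707 to 1060 CPM with DMSO, so clones overlapped. The haemato-endothelial markers summed to 56.0 to 65.4 CPM with dTAG-13 and 78.1 to 100.3 CPM with DMSO in RNA, without overlap, and 2 of 6 tested fell (Kdr and Tal1, -0.87 and -0.65). The mesoderm and muscle markers summed to 858.5 to 891.5 CPM with dTAG-13 and 819.9 to 840.2 CPM with DMSO, also without overlap, though Hand1 (-0.91) and T (-0.40) fell and only Acta2 rose (0.49). Endoderm (2 of 4 fell) and neural markers (Sox1 fell, 1 of 5) overlapped in their sums. Of 7 fibroblast and feeder markers 3 fell in RNA (201 to 223 CPM summed with dTAG-13, 208 to 218 CPM with DMSO), and 0 of 6 passed in PRO-seq, where the sums were 19.0 to 26.5 CPM with dTAG-13 and 17.3 to 20.0 CPM with DMSO. With DESeq2 5 of the 6 pluripotency markers fell in RNA and 3 in PRO-seq, beside 1.76% and 1.29% of all genes. In PRO-seq the summed levels of all 6 marker lists overlapped between treatments. Their part in the changes of the mitosis genes was not tested.

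**Figure D3:**
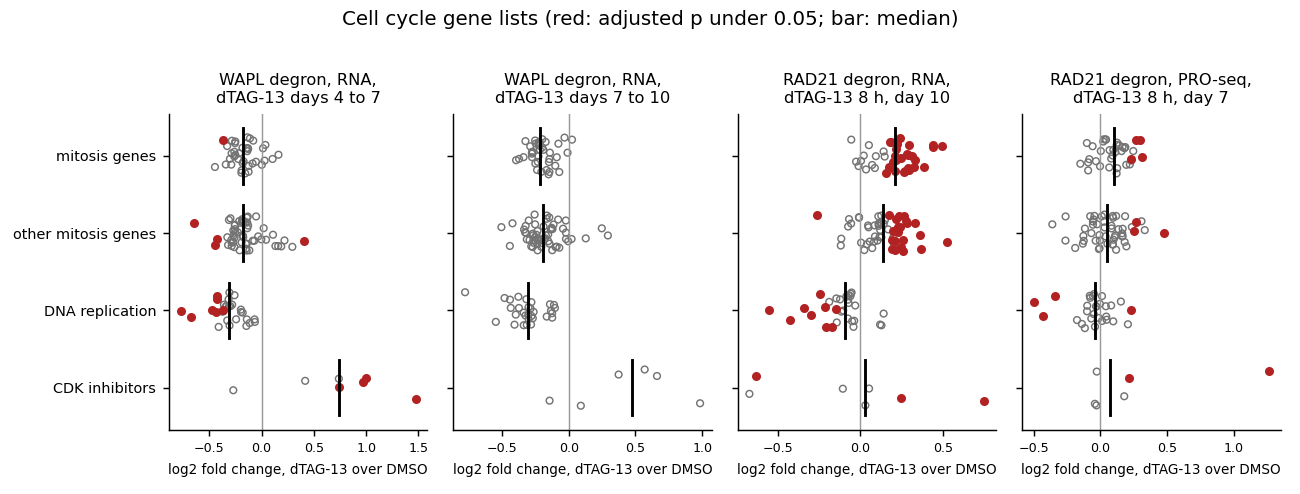
Fitted log2 fold change of dTAG-13 over DMSO (x axis, whose range differs between panels) for the genes of each cell cycle list in each set, one point per gene. In RAD21 RNA the mitosis genes centre at 0.21 and the DNA replication genes at -0.09, and in WAPL days 4 to 7 at -0.18 and -0.31.

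In WAPL-degron cells treated from day 4 to 7 the members lay below their DMSO controls, but few passed. Bub1b alone fell and 0 rose, 1 of 38 called, beside 5.73% of all 14544 genes tested that fell and 9.46% that rose. The fit had a clone term and no block for the replicate number. The median was -0.18, against -0.01 for all genes, and 32 of 38 were below 0. The summed level was 7642, 8127 and 7829 CPM in dTAG-13 libraries of clone H7 replicates 1 and 2 and clone H2, against 8336, 8651 and 9306 CPM with DMSO. Every dTAG-13 library lay below every DMSO library, though 20 members were lower in every pair where 29.8% of all genes were, and 14 had all dTAG-13 libraries below all DMSO libraries (14.6% of all genes). The median over the H7 pairs was -0.11 and -0.12, and over the H2 pair -0.31.

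Bub1b, which holds the anaphase-promoting complex in check until kinetochores attach, had 236, 236 and 226 CPM in dTAG-13 libraries of H7 replicates 1 and 2 and H2, against 289, 282 and 332 CPM with DMSO. The groups did not overlap, and the log2 fold change was -0.37 (SE 0.098, adjusted p = 0.0409). The next smallest p-values belonged to Plk1 and Pttg1, which did not pass. Plk1 had 278, 251 and 259 CPM with dTAG-13 and 319, 319 and 355 CPM with DMSO (-0.33, adjusted p = 0.0537). Pttg1 had 78.2, 58.0 and 56.9 CPM with dTAG-13 and 85.5, 87.5 and 89.5 CPM with DMSO (-0.45, adjusted p = 0.0574). Espl1 had 183, 176 and 195 CPM with dTAG-13 and 235, 205 and 244 CPM with DMSO (-0.30, adjusted p = 0.0657). In these 3 genes too every dTAG-13 library was below every DMSO library.

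With the replicate number as a block (H7 replicates 1 and 2 and clone H2 as 3 pairs, though no label says that the H7 numbers pair libraries) 10 fell, beside 12.1% of all genes: Pttg1, Bub1b, Bub1, Plk1, Espl1, Ncapg, Kif2c, Kif11, Ncaph and Aurkb. DESeq2 called 5 (Bub1b, Plk1, Pttg1, Espl1 and Kif2c), beside 7.44% of all genes that fell. In fits without the clone term or in clone H7 alone 0 passed, beside 6.83% and 2.39% of all genes called. Without dTAG-13 replicate 1 the count was 12 (11 fell and Anln rose, beside 14.1% of all genes that fell and 15.4% that rose). Without dTAG-13 replicate 2 it was 4, all lower, beside 6.46% of all genes. It was 0 without DMSO replicate 1 or 2, beside 6.73% and 6.78% of all genes called. Without the DMSO or the dTAG-13 library of clone H2 it was also 0, beside 2.26% and 2.27%.

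The other genes followed for every set did not pass at days 4 to 7. Aurkb had 91.3, 78.7 and 85.6 CPM in dTAG-13 libraries of H7 replicates 1 and 2 and H2, against 102.3, 93.5 and 111 CPM with DMSO (-0.26), and Top2a 748, 777 and 786 CPM with dTAG-13 and 847, 876 and 964 CPM with DMSO (-0.21). Cdk1 had 199.9, 167 and 137 CPM with dTAG-13 and 188, 197 and 182 CPM with DMSO (-0.18), and Ccnb1 67.3, 119.7 and 92.5 CPM with dTAG-13 and 71.6, 118 and 118.9 CPM with DMSO (-0.12). Mki67 had 548, 738 and 829 CPM with dTAG-13 and 703, 691 and 911 CPM with DMSO (-0.12). Aurkb and Top2a separated the groups, and Cdk1, Ccnb1 and Mki67 overlapped. Over all members the log2 fold changes ran from -0.45 (Pttg1) to 0.16 (Anln), and only Cenpe and Kif4 were higher with dTAG-13 in every pair, beside 29.6% of all genes.

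Genes that hold back or precede mitosis changed in the same set, where 9.46% of all genes rose and 5.73% fell. Of 7 CDK inhibitors 4 rose, among them Cdkn2b (p15; 1.48), Cdkn2a (1.00) and Cdkn1a. Cdkn1a had 402, 306 and 395 CPM in dTAG-13 libraries of H7 replicates 1 and 2 and H2, against 217, 248 and 196 CPM with DMSO (0.74), without overlap. Of 30 DNA replication genes 7 fell and 0 rose, among them Rrm2 and Tk1, which supply deoxynucleotides (-0.68 and -0.77), and Pola1 of the primase complex (-0.44). Of 3 G1 cyclins Ccnd2 rose (0.98). Of 56 other mitosis genes Zwint rose (0.41) and 3 fell, among them Pbk (-0.65) and Ncapd2 (-0.44), shares no larger than those of all genes. None of 22 regulators passed with edgeR, and DESeq2 called 2 of them as lower; Foxm1 was at 0.02, Mybl2 at -0.30 and E2f1 at -0.16.

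Cell type markers moved in these libraries as well. The 7 mesoderm and muscle markers summed to 585 to 859 CPM with dTAG-13 and 266 to 314 CPM with DMSO (4 rose, 1 fell), and fibroblast and feeder markers to 90.3 to 112 CPM with dTAG-13 and 64.0 to 74.7 CPM with DMSO (4 of 7 tested rose, 1 fell). The 6 pluripotency markers summed to 1126 to 1506 CPM with dTAG-13 and 1528 to 1749 CPM with DMSO (Sox2 fell), and the 5 neural markers to 214 to 265 CPM with dTAG-13 and 320 to 391 CPM with DMSO (1 rose, 1 fell). These 4 lists did not overlap between treatments, and the endoderm and haemato-endothelial markers did. The part of these cells in the result was not tested.

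Treatment from day 7 to 10 gave 0 calls among the 38 members, beside 0% of all 14110 genes tested with edgeR, in a fit with no block for the replicate number. With such a block 26 fell, beside 19% of all genes that fell and 17.5% that rose, but 2 pairs cannot show that the numbers pair the libraries. Without it DESeq2 and limma-voom also called 0 members, beside 0.283% and 0% of all genes, and 1 member, Bub1b, had an unadjusted p under 0.05 with edgeR. Of the members 37 were below 0, with a median of -0.22 against -0.01 for all genes. The summed level was 6565 and 6656 CPM in dTAG-13 libraries of H7 replicates 1 and 2, against 7414 and 7669 CPM with DMSO, without overlap. Of the members 35 were lower in both pairs (41% of all genes) and 18 had both dTAG-13 libraries below both DMSO libraries (16.8% of all genes).

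Bub1b had 188 and 171 CPM in dTAG-13 libraries of H7 replicates 1 and 2, against 244 and 228 CPM with DMSO (-0.39, SE 0.15, adjusted p = 0.753). Ncapg, a condensin I subunit, had 74.9 and 87.8 CPM with dTAG-13 and 100.2 and 110.5 CPM with DMSO (-0.37, adjusted p = 0.793). Kif2c had 118 and 112 CPM with dTAG-13 and 153 and 135 CPM with DMSO (-0.32, adjusted p = 0.802). Both dTAG-13 libraries were below both DMSO libraries in each of these 3 genes. Plk1 had 231 and 203 CPM with dTAG-13 and 263 and 245 CPM with DMSO (-0.23), and Espl1 137 and 143 CPM with dTAG-13 and 157 and 177 CPM with DMSO (-0.25). Top2a had 586 and 585 CPM with dTAG-13 and 681 and 709 CPM with DMSO (-0.25), also without overlap, as for Plk1 and Espl1.

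In other members replicates 1 and 2 stood apart in both treatments. Pttg1 had 94.8 and 58.8 CPM in dTAG-13 libraries of H7 replicates 1 and 2, against 106 and 74.2 CPM with DMSO (-0.24), and Cdk1 189 and 144 CPM with dTAG-13 and 207 and 160.5 CPM with DMSO (-0.14). Mki67 had 422 and 572 CPM with dTAG-13 and 479 and 677 CPM with DMSO (-0.22), and Ccnb1 74.3 and 84.2 CPM with dTAG-13 and 81.4 and 97.4 CPM with DMSO (-0.17). In each of the 4 the lower value within a replicate was the dTAG-13 one, and the treatments overlapped. Aurkb had 85.5 and 70.5 CPM with dTAG-13 and 102.1 and 86.7 CPM with DMSO (-0.28), with the replicate 1 dTAG-13 library just below the replicate 2 DMSO library. No other list had a call: the CDK inhibitors had a median of 0.47 and all 30 DNA replication genes were below 0 (median -0.30). The mesoderm and muscle markers summed to 862 to 963 CPM with dTAG-13 and 530 to 651 CPM with DMSO, and the pluripotency markers to 858 to 1217 CPM with dTAG-13 and 1236 to 1602 CPM with DMSO. Neural (206 to 208 CPM with dTAG-13, 270.2 to 297 CPM with DMSO), endoderm (36.3 to 38.04 and 55.9 to 61.0 CPM) and haemato-endothelial markers (37.7 to 40.4 and 44.5 to 61.8 CPM) were lower with dTAG-13 without overlap, and fibroblast and feeder markers overlapped; their part in the values of the mitosis genes was not tested.

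**Figure D4:**
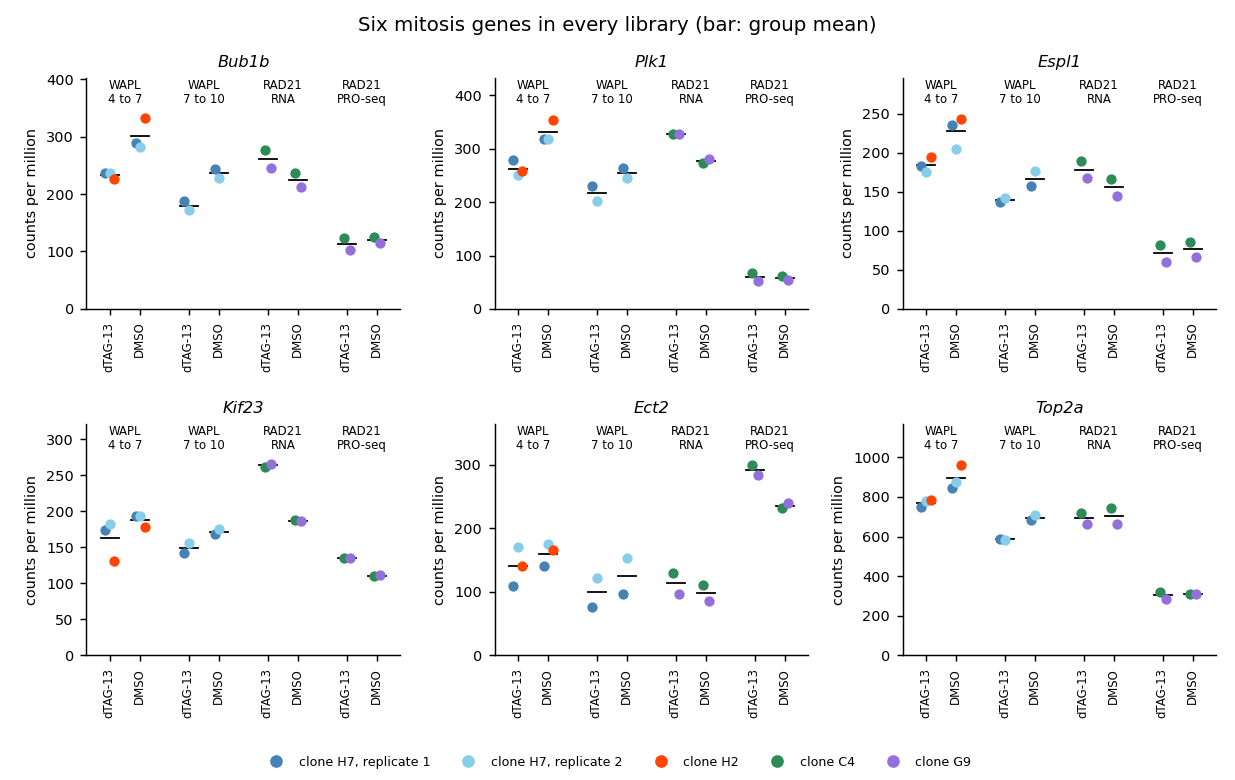
Level in CPM (y axis, from 0) of Bub1b, Plk1, Espl1, Kif23, Ect2 and Top2a in every library, with dTAG-13 left of DMSO in each of the 4 sets, points coloured by clone and replicate and the group mean as a line. Bub1b lies lower with dTAG-13 in both WAPL sets (226 to 236 CPM against 282 to 332 CPM at days 4 to 7) and higher in RAD21 RNA, and Kif23 is higher with dTAG-13 in both RAD21 sets.

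The effect of WAPL loss was compared between the windows over all 10 WAPL libraries by an interaction term (days 7 to 10 minus days 4 to 7). None of the 38 members and 0% of all 14326 genes passed with edgeR, and 0 members had an unadjusted p under 0.05. DESeq2 called 0 members, beside 0.0279% of all genes. The median difference was -0.02, with 15 members above 0 and 23 below. Absence of a call does not show that the windows act alike: the differences ran from -0.20 (Hmmr) to 0.22 on the log2 scale.

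Between days, the DMSO level of the members was lower at the later one. In DMSO libraries of clone H7 the summed level was 7280 and 7563 CPM at day 10 (replicates 1 and 2), against 8448 and 8761 CPM at day 7, over the genes in both tables. Of the 38 members 36 were below 0 (day 10 over day 7), with a median of -0.17, and 22 had both day 10 libraries below both day 7 libraries (23.1% of all genes). None passed with edgeR, DESeq2 or limma-voom, beside 1.39% of all genes, and 3 had an unadjusted p under 0.05. Espl1 had 154 and 174 CPM at day 10, against 238 and 207 CPM at day 7 (-0.44, adjusted p = 0.237). Plk1 had 258 and 242 CPM at day 10 and 323 and 323 CPM at day 7 (-0.37, adjusted p = 0.268). Top2a had 669 and 699 CPM at day 10 and 858 and 888 CPM at day 7 (-0.35, adjusted p = 0.309). These 3 had the smallest p-values, without overlap. The days come from separate tables, so day and table cannot be told apart, and without the day 10 library of replicate 1 or 2 the count was 3 or 7, all lower, beside 8.46% or 7.92% of all genes that fell. Marker lists differed between the days as well: all 3 endoderm markers tested rose (median 3.72), as did 2 of 6 mesoderm and muscle and 2 of 7 fibroblast and feeder markers, and their part in the values of the mitosis genes was not tested.

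Clones of one degron were compared too. Between H2 and H7 (WAPL, days 4 to 7, treatment in the fit) 0 of 38 passed with edgeR or DESeq2, beside 3.91% and 7.26% of all genes. With edgeR 3 had an unadjusted p under 0.05. Without dTAG-13 replicate 2 the count was 2, both higher in H2, beside 4.58% of all genes. Between G9 and C4 in RNA 12 of 38 passed (31.6%), a smaller share than of all genes, of which 21.2% were higher and 22% lower in G9: 2 were higher in G9, Pttg1 (0.19) and Birc5 (0.14), and 10 were lower, led by Aspm (-0.47), Ect2 (-0.39) and Nek2 (-0.32). In PRO-seq 16 of 36 passed (44.4%), beside 17.9% of all genes higher and 16.9% lower in G9, with Anln higher in G9 (0.24) and 15 lower, led by Cdk1 (-0.34), Ccnb1 (-0.37) and Espl1 (-0.40). DESeq2 called 5 in each, all lower in G9, beside 7.45% of all genes in RNA and 7.69% in PRO-seq. Without any 1 library the count was 0 in RNA and, in PRO-seq, 0 except for 2 without the G9 DMSO library, beside 6.27% of all genes. In RNA all 6 pluripotency markers were lower and all 4 endoderm markers tested higher in G9. Each clone is a single line, and clone and culture cannot be told apart.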

How the data were processed

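Poly(A) RNA of 14 libraries and nascent RNA (PRO-seq) of 4 libraries were analysed, with groups, clones and replicate numbers from the sample labels. Each RNA table (3 in all) gives whole-number counts for genes, which the authors deposited without normalization. The deposited PRO-seq values are expected counts that step by 0.5, and they were rounded before testing. Per the submitters' processing notes, TopHat2, Novoalign, Bowtie2, cutadapt, HOMER, DESeq, DESeq2, bedtools, deepTools and Juicer were used with the builds mm9, hg19 and dm6; no role or version is stated. How reads were counted and whether strand was used is not given in the sources used here, so reads of overlapping or antisense genes cannot be told apart. Genes numbered 24421 and 14997 in the early and late WAPL tables, 15363 in the RAD21 RNA table and 22529 in the PRO-seq table.

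The test was edgeR's quasi-likelihood test (edgeR 4.0.16, R 4.3.3), with TMM scaling, filterByExpr at a minimum count of 10 and Benjamini-Hochberg adjustment over all genes tested to a threshold of 0.05, two-sided, each set on its own. A clone term entered every set but WAPL days 7 to 10, which had clone H7 only. Residual degrees of freedom were 3 (WAPL days 4 to 7), 2 (days 7 to 10), 1 in each RAD21 set, 5 for the difference between windows and 2 for the day comparison. Alternatives were RLE scaling, scaling by library totals, no filter, a filter at a mean count of 50, limma-voom (limma 3.58.1), DESeq2 1.42.0, leaving out each library in turn, fits without the clone term, clone H7 alone and the replicate number as a block. Fits that left out a library had no clone term in the RAD21 sets, and no treatment term for G9 over C4. Same-numbered WAPL libraries of days 4 to 7 deviated from their group means together. The correlation across genes was 0.57 and 0.59 for the H7 pairs and 0.68 for the H2 pair. With numbers crossed within H7 it was -0.03 and 0.08. The H2 value also holds the difference between clones, and 2 H7 pairs cannot show that numbers pair the libraries. The fit with the replicate block took the numbers to pair them. The main fit of that set had the clone term and did not use this pairing. In the RAD21 sets the clone term is that pairing. No 2 libraries of a group agreed within sampling noise. The scripts were checked on simulated data.

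The members, gene lists, markers and motifs were chosen with earlier results of these data known. Values in every library are given for members called in a comparison (up to 8, by smallest p), for the 3 with the smallest p where fewer than 3 were called, and for Espl1, Pttg1, Plk1, Aurkb, Ccnb1, Cdk1, Mki67 and Top2a throughout; of other lists up to 3 called genes are named, with any gene that moved alone in its direction, and Cdkn1a, Foxm1, Mybl2, E2f1, Rad21 and Wapl.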

Additional observations from a re-analysis of the deposited data

Results flagged for a closer look

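Kif4, a chromokinesin, was higher with dTAG-13 in all 3 pairs of WAPL libraries treated from day 4 to 7 and lower in both pairs treated from day 7 to 10. The fitted difference, days 7 to 10 minus days 4 to 7, was -0.16 on the log2 scale (SE 0.13, adjusted p = 1.0 with edgeR's quasi-likelihood test), so the windows were not shown to differ for this gene. At days 7 to 10 it had 113 and 115 CPM with dTAG-13 and 130.4 and 122 CPM with DMSO, and at days 4 to 7 it had 134, 129 and 127 CPM with dTAG-13 and 131, 127 and 122.5 CPM with DMSO.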

How the results depend on the processing

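Of counts of called members under the alternatives, 67 kept within 1.5 times the main count and direction, 29 were lower and 10 higher; of medians 38 moved by less than the spread between replicates and 11 by more; of values of single genes 459 kept their direction and side of the threshold, 93 lost the call, 30 gained it and 27 turned in sign. Most of the 67 counts that kept were 0 in the main fit and stayed 0 (WAPL days 7 to 10, the window difference, the day comparison and H2 over H7). They do not show how the comparisons with calls hold. The cause of the changes was not tested.

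For WAPL days 4 to 7 (1 called) the count was 2 with RLE scaling, 3 with no filter, 5 with DESeq2 and 10 with the replicate block, all lower. Of all genes 6.04%, 5.44%, 7.44% and 12.1% fell in these fits. The count was 0 without the clone term and 0 in clone H7 alone, beside 6.83% and 2.39% of all genes called. Without any 1 library the count ran from 0 to 12, beside 2.26% to 29.5% of all genes called. For WAPL days 7 to 10 (0 called) the replicate block gave 26 (68.4%), all lower, beside 19% of all genes that fell and 17.5% that rose, though 2 pairs cannot show by their correlation (0.85) that numbers pair the libraries; the median was -0.19 with library totals and -0.25 to -0.18 without any 1 library. For RAD21 RNA (26 called) the count was 17 with library totals, 6 with DESeq2, and 0 with no clone term and no replicate block. Of all genes 4.91%, 1.53% and 0% rose in these fits. The median was 0.16 with library totals, and 0.17 to 0.27 in fits without any 1 library, which also lacked the clone term. For PRO-seq (4 called) the count was 1 with DESeq2, and 0 with no clone term and no replicate block, beside 1.77% and 0% of all genes that rose. In fits without any 1 library, which also lacked the clone term, the median ran from -0.0065 to 0.21. For G9 over C4 DESeq2 gave 5 in RNA and 5 in PRO-seq, all lower, beside 7.45% and 7.69% of all genes. For H2 over H7 the count was 2 without dTAG-13 replicate 2, both higher, beside 4.58% of all genes. With the replicate block the window difference and the day comparison stayed at 0, beside 0.0349% and 11.4% of all genes called.

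Some genes below the threshold turned in sign without 1 library. In the RAD21 sets these fits had no clone term, so their ranges also hold the difference between clones C4 and G9. In PRO-seq Aurkb ran from -0.36 to 0.029, Cdk1 from -0.16 to 0.27, Espl1 from -0.34 to 0.10, Plk1 from -0.16 to 0.22, Pttg1 from -0.0066 to 0.32 and Top2a from -0.12 to 0.050. In RAD21 RNA Aurkb ran from -0.033 to 0.028, Ccnb1 from -0.033 to 0.22, Cdk1 from -0.064 to 0.031, Pttg1 from -0.029 to 0.31 and Top2a from -0.11 to 0.060. At WAPL days 4 to 7 Ccnb1 ran from -0.43 to 0.059. At WAPL days 7 to 10 Cdk1 ran from -0.32 to 0.064, Mki67 from -0.45 to 0.055 and Pttg1 from -0.59 to 0.069. In RAD21 RNA Aurkb was -0.045 with library totals and -0.0046 with a filter at a mean count of 50.

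A fit that leaves out a library of a set of 4 rests on the spread of the other group. The lowest member count was 354, in PRO-seq, well above the floor of 3 counts; whether depth or the number of libraries limits the calls was not tested.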
